A study of Mus musculus with 10 samples.

Results

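The 4 libraries from primary mouse hippocampal neurons that received only the vehicle DMSO are described here, without a contrast to the treated cells of the same study. They were chosen by title and agent label, and are 4 of the 10 libraries of the series. Each was made from polyadenylated RNA of cells labelled as primary hippocampal neurons, kept for 10 days in vitro and given DMSO for 6 h. The other 6 libraries came from the same kind of culture given tunicamycin, a blocker of N-linked glycosylation that causes endoplasmic reticulum stress, at 2 ug/mL for 6 h. No genotype, strain, age of the donor animals, sex or culture medium is among the labels used here, and nothing says whether the 4 libraries came from separate cultures, so every SD below measures the spread between these libraries only.

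A dissociated hippocampal culture holds glutamatergic pyramidal and granule neurons, a minority of GABAergic interneurons, and glia that grow with them unless division is blocked. In the weeks after plating the neurons extend axons and dendrites, form synapses and exchange early for late members of many gene families, such as the NMDA receptor subunits GluN2B and GluN2A or the chloride transporters NKCC1 and KCC2. The bulk RNA of such a culture is the sum over all of these cells, so fewer cells of a type and less RNA per cell cannot be told apart.

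Levels are given on 2 scales. Counts per 1e+06 (CPM) divide a gene's count by all counts of its library and compare 1 gene between libraries. The length-scaled level, in TPM (transcripts per 1e+06), was computed from the counts and the joined exon length of each gene, and is the scale on which different genes are compared. A gene was called detected at 1 CPM or more in each of the 4 libraries, where 1 CPM stands for 21.7 to 27.05 counts. The library kit does not mark strand, so a gene that shares at least 10% of its exon length with another gene is uncertain, as is one that shares its 50-base words with near-identical copies. Of the genes named below, Atp1b1, Bdnf, CT010467.1, Cacna1s, Ccna2, Ckm, Csf1r, Gbx2, Grin1, Grin3b, Grm6, Hcn3, Ina, Kcnj13, Nefl, Slc1a1, Slc32a1, Snap47, Syn3, Tagln, Tuba1a, Uchl1, Xist and mt-Atp8 overlap another gene, and Actg1, Eno1, Gm23935, Grin2a, Ppid, Stmn1, Tuba1a, Tubb2a, Tubb2b, mt-Atp6, mt-Co1, mt-Co2, mt-Co3, mt-Nd3, mt-Nd4 and mt-Nd4l have such copies. Values are means ± SD (n = 4) unless each library is given, and values for each library follow the order of replicates 1 to 4.

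The 4 libraries held 23063986, 27046502, 21677129 and 22058721 counts. Names of the deposited files place replicates 1 and 2 on sequencing lane 1, replicate 3 on lane 2 and replicate 4 on lane 3. Mitochondrially encoded genes took 3.67%, 3.75%, 3.69% and 3.87% of the counts, a range of little width. As 6 mitochondrial genes were listed at 0, as described below, this is the share as counted and may be too low. Each pair of libraries differed by more than counting noise, with a chi-square of 3.25 to 10.5 per degree of freedom over genes, and all 4 were kept as samples. Of 48709 genes in the table, 13347 (27.4%) were detected, among them 12586 of 21695 protein-coding genes (58.0%) and 487 long non-coding genes. No count fell on 21265 genes in any of the 4 libraries.

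The most abundant transcripts by count were those of the mitochondrial respiratory chain and of the neuronal cytoskeleton and membrane. Protein-coding genes took 98.3% of all counts, 1073 genes held 50% of them, and 73 genes stood at 1000 CPM or more. The mitochondrial genes mt-Co1 at 9981 ± 225 CPM, mt-Cytb at 8637 ± 123 CPM, mt-Nd1 at 4939 ± 122 CPM, mt-Nd5 at 3720.4 ± 417 CPM, mt-Nd2 at 3527 ± 213 CPM and mt-Nd4 at 2453 ± 76.5 CPM were among the first 10 by CPM, and the mitochondrial ribosomal RNA mt-Rnr2 followed at 1693 ± 112 CPM. Of nuclear genes, Map1b, a microtubule-associated protein of growing axons, was highest, with 2740.2, 3242, 3072 and 3149.8 CPM. Replicate 1 was the lowest library for it and the other 3 lay close together. Dpysl3, also called Crmp4, which acts in axon growth, followed with 2831, 2831, 2894 and 2802 CPM. Its 4 libraries lay within a narrow range. Cpe, carboxypeptidase E of the secretory granules, had 2580.0, 2579, 2576 and 2598 CPM, a range so narrow that Cpe was also among the 12 genes of smallest relative spread. Also among the first 25 named genes were the dendritic Map2 (2355 ± 214 CPM), the spectrin Sptan1 (2298 ± 42.9 CPM), the stearoyl-CoA desaturase Scd2 (2244 ± 38.1 CPM) and the chaperone Hsp90ab1 (2229 ± 52 CPM). Lower on the same list stood the axonal motor Kif1a (2113 ± 53.5 CPM), the imprinted proteolipid Nnat (1984 ± 32 CPM), the amyloid precursor App (1854 ± 20.2 CPM), the 14-3-3 protein Ywhag (1791 ± 40.8 CPM), the stathmin Stmn2 (1688 ± 30.7 CPM), the reticulon Rtn1 (1677 ± 61.7 CPM) and tau, Mapt (1662 ± 61.9 CPM). Lars2 and the ribosomal RNA model CT010467.1, on the list too, are described below with Mir6236 and other models.

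**Figure D1:**
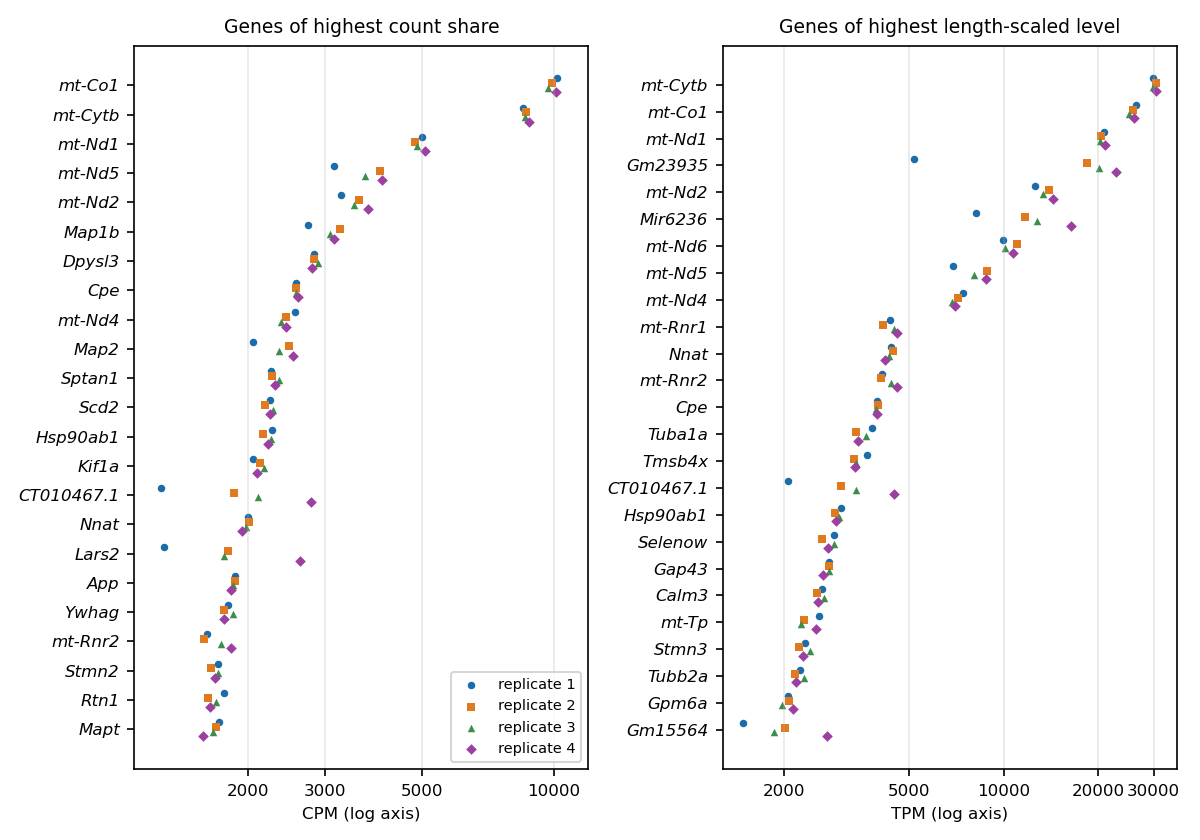
The left panel shows genes among the 25 of highest mean CPM and the right panel genes among the 25 of highest mean TPM, as far as they are reported here, on logarithmic axes, with 1 point for each of the 4 replicates. Points of 1 gene lie close together except for Lars2, CT010467.1, Mir6236, Gm15564 and Gm23935, where replicate 1 is lowest.

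Scaling by length changed the order: 11 of the 25 genes of highest CPM were also among the 25 of highest TPM. Genes with long joined exons moved down. Map1b ranked 117 by TPM at 769 ± 55.9 TPM, Map2 178 at 572 ± 51.3 TPM, and App 179 at 570.0 ± 11.1 TPM. These ranks depend on the length definition. The joined exons of Map2 span 16449 bases and its longest transcript 6258, and with the longest transcript Map2 came before Mapt and Map1b. Genes with short joined exons moved up. Nnat stood at 4333 ± 106 TPM and Cpe at 3956 ± 31.1 TPM, the highest nuclear protein-coding genes on this scale. They were followed by the tubulin Tuba1a at 3560.1 ± 194 TPM, the actin-binding thymosin Tmsb4x at 3445 ± 157 TPM, Hsp90ab1 at 2969 ± 60.1 TPM, the selenoprotein Selenow at 2790.4 ± 114 TPM, and Gap43, the growth cone protein, at 2745 ± 51.1 TPM. Calm3 reached 2603 ± 63.5 TPM, the stathmin Stmn3 2321 ± 80.1 TPM, the tubulin Tubb2a 2227 ± 68.7 TPM, and the membrane proteolipid Gpm6a 2053 ± 67.4 TPM. The mitochondrial genes mt-Cytb (30157 ± 418 TPM), mt-Co1 (25808 ± 628 TPM), mt-Nd1 (20614 ± 423 TPM), mt-Nd2 (13572 ± 784 TPM), mt-Nd6 (10446 ± 499 TPM), mt-Nd5 (8147 ± 908 TPM), mt-Nd4 (7112 ± 255 TPM), mt-Rnr1 (4377 ± 189 TPM) and mt-Rnr2 (4274 ± 247 TPM) filled 9 of the places, and the 67-base transfer RNA model mt-Tp (2420.2 ± 150.3 TPM) another.

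The remaining places on the length-scaled list went to Gm23935, Mir6236, CT010467.1 and Gm15564. For the very short Gm23935 and Mir6236 the level rests on the length divided by. CT010467.1, with 2466 bases of joined exons, ranked 17 by CPM and 16 by TPM, and Gm15564, with 821 bases, ranked 349 and 25. The 57-base model Gm23935 (chr16:11144125-11144181, GRCm38) ranked 823 by CPM and 4 by TPM, and the gene Mir6236 ranked 407 and 6. The sequence of Gm23935 is shown because its length, little above the 50 bases of a read, sets its high TPM rank, while by CPM it ranked far lower.
Gm23935: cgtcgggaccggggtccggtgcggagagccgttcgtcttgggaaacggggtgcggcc

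The whole Gm23935 sequence is also held by 2 other gene models, Gm24245 and Gm24270. A library of polyadenylated RNA is not made to measure mature miRNAs. The source of the counts at Mir6236, Lars2 and Gm15564 was not tested. Gm23935 had 73.8, 260.0, 288 and 328 CPM. Mir6236 had 251, 357, 396 and 509.9 CPM. Lars2, a mitochondrial leucyl-tRNA synthetase, had 1289, 1797, 1766 and 2634 CPM. CT010467.1, an annotated ribosomal RNA, had 1267, 1854, 2111 and 2791 CPM, and Gm15564, a non-coding model, had 304, 409, 385 and 567 CPM. All 5 were lowest in replicate 1. Their joint share of the counts was 0.318%, 0.468%, 0.495% and 0.683%, lowest in replicate 1 and highest in replicate 4, the reverse of 106 of the spread genes described below. The part of this share in other results was not tested.

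Mitochondrial genes were not all measurable. Of the 15 on the list, 9 were detected and 6, mt-Co2, mt-Co3, mt-Atp6, mt-Nd3, mt-Nd4l and mt-Atp8, were listed at 0. For mt-Co2 99.5% of the 50-base words were also in a pseudogene on chromosome 1, for mt-Co3 99.9%, for mt-Atp6 99.5%, for mt-Nd3 98.0% and for mt-Nd4l 98.8%. mt-Atp8 shared no word, but 21.1% of it overlaps a neighbouring gene. In mt-Nd4 62.2% and in mt-Co1 51.1% of the words were shared with other genes, so their levels are uncertain too. Among nuclear genes, Actg1, the cytoplasmic gamma-actin, held only 154 counts over the 4 libraries and shares words with 23 other genes. A low value of such a gene is not read as a low level.

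The 5 markers that were to check the culture's label were all detected, as were 27.4% of all genes and 58.0% of protein-coding genes. Map2, of neuronal dendrites, had 2055, 2481, 2354 and 2532 CPM. Slc17a7, the vesicular glutamate transporter VGLUT1 of excitatory neurons, had 606, 608, 675 and 648 CPM. Gad1, which makes GABA in interneurons, had 267, 253, 268 and 283 CPM. All 3 were similar across libraries, with replicate 1 low for Map2. Slc1a3, the glutamate transporter GLAST of astrocytes, had 867, 827, 873 and 902 CPM, and Gfap, the astrocyte filament, 428, 480.5, 502 and 430.2 CPM. On the length-scaled level Map2 (572 ± 51.3 TPM) was highest, followed by Slc17a7 (469.8 ± 21.3 TPM), Gfap (436 ± 35.7 TPM), Slc1a3 (406 ± 11.1 TPM) and Gad1 (139.9 ± 5.22 TPM). The ranges of Slc17a7 and Gfap overlapped, as did those of Gfap and Slc1a3, and Gad1 lay below all of them in every library. Except for Map2, which stayed first, this order changed with the length definition: with the median transcript Slc1a3 followed Map2 and Gfap, close to Gad1, was lowest. The libraries labelled as primary neurons thus also held astrocyte transcripts.

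All 15 pan-neuronal markers were detected, with a median of 673 CPM, and none had its highest library at 1.5 times its lowest or more. Over all 11158 genes with a mean of at least 5 CPM that ratio was reached by 256, or 2.29%; such genes are called spread below. Gap43 (2745 ± 51.1 TPM) led on the length-scaled level with joined exons, though not with the median transcript, followed by Tubb3, the neuronal beta-tubulin (1894 ± 83.1 TPM), Uchl1, a neuronal ubiquitin hydrolase (1686 ± 71.7 TPM), and Stmn2 (1204 ± 17.9 TPM). Dcx, a microtubule protein of immature neurons, was still at 181 ± 11.1 TPM, against 63.8 ± 2.28 TPM for Rbfox3, the NeuN antigen of mature neurons. Dcx was above Rbfox3 in each library, with 167, 193, 176 and 186 TPM against 61.5, 63.8, 66.9 and 62.8 TPM.

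All 14 excitatory markers were detected, with a median of 91.1 CPM. Neurod6, a transcription factor of forebrain pyramidal cells, stood at 840.3 ± 30.3 TPM, above Camk2a at 513 ± 29.4 TPM, an order that turned with the median transcript as length. Tbr1, of early-born cortical neurons, reached 36.9 ± 1.76 TPM and Emx1, of the dorsal forebrain, 37.9 ± 1.33 TPM. Zbtb20, which specifies the hippocampal field, was the 1 of 13 members above 5 CPM that was spread, with 634, 998, 835 and 905 CPM; replicate 1 was low and the other 3 did not fall into groups.

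Markers of the hippocampal subfields were present together. All 10 markers of the CA pyramidal fields were detected, with a median of 46.3 CPM, among them Wfs1 of CA1 at 82.5 ± 5.5 TPM, Fibcd1 of CA1 at 31.3 ± 1.31 TPM and Grik4, a kainate receptor of CA3, at 33.7 ± 0.698 TPM. Of 8 dentate granule markers, 7 were detected, led by C1ql2 at 43.3 ± 4.63 TPM, with the fate factor Prox1 at 9.71 ± 0.735 TPM. The exception was Lct at 0.218 CPM. None of the members of both lists above 5 CPM was spread. Summed over the list, granule cell markers took 115, 112, 119.9 and 122 CPM and CA markers 579, 568, 573 and 562 CPM in the 4 libraries.

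Interneuron markers covered several classes: 16 of 17 were detected, with a median of 33.4 CPM. Gad2 stood at 103 ± 6.3 TPM, the vesicular GABA transporter Slc32a1 at 60.2 ± 3.3 TPM and the medial ganglionic eminence factor Lhx6 at 28 ± 2.44 TPM. The peptide genes Sst at 189 ± 19.4 TPM and Npy at 87.3 ± 8.59 TPM and the calcium-binding Calb2 at 622 ± 44.8 TPM were among the high members. Pvalb, of fast-spiking interneurons, was not detected at 0.577 CPM, and Vip passed only narrowly at 1.19 CPM. Calb2 and Reln, an extracellular guidance protein at 415 ± 29 CPM, also mark Cajal-Retzius cells. Of the 7 markers on that list 4 were detected, with Trp73 at 3.86 CPM and Lhx5 not detected at 0.721 CPM. Cck was the 1 spread interneuron marker of 12 above 5 CPM, with 20.9, 21.2, 31.3 and 26.7 CPM.

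Patterning genes of several brain regions were looked at. Of 16 patterning factors of the brain 11 were detected, among them Zbtb20 (109.6 ± 20.3 TPM) and Lhx2 (105 ± 1.91 TPM), with the dorsal telencephalic Emx1 and Emx2 at 37.9 and 27.8 TPM. The 11 also held Otx2 and members of the ventral forebrain or other regions. The list by itself therefore does not assign a region to the culture. Of the midbrain and hindbrain factors on the list En2 was detected, at 1.32 CPM, and En1, Gbx2, Irx1, Irx2 and Irx3 were not, at 0.611, 0.937, 0.0953, 0.387 and 0.439 CPM. None of 39 Hox genes, which pattern the hindbrain and spinal cord, was detected. Of these, 26 had no count in any library, which allows up to 0.0320 CPM for each, and the highest, Hoxb13, reached 0.456 CPM. Of 18 genes that mark other brain regions 6 passed, with Cbln1, of cerebellar granule cells, highest at 12.7 ± 0.965 CPM, followed by Otx2 at 10.8 ± 1.68 CPM. The dopamine transporter Slc6a3 reached 1.62 CPM, while the monoamine genes Th and Tph2 were below detection at 0.551 and 0.747 CPM.

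Astrocyte genes were abundant. Of 15 markers 14 were detected, with a median of 181 CPM. The lipid carrier Apoe reached 1231 ± 79.9 TPM, the matrix protein Sparcl1 1071 ± 54.4 TPM, the aldolase Aldoc 382 ± 18.2 TPM and glutamine synthetase, Glul, 218 ± 11.8 TPM. Some of these are also made by neurons or other glia. Slc1a2, the transporter GLT-1, reached 378 ± 35.9 TPM, and the range of its 4 libraries overlapped that of Slc1a3. The gap junction gene Gjb6, a marker of mature astrocytes, was not detected at 0.189 CPM, while its relative Gja1 reached 151 ± 12.3 CPM. Aqp4, the water channel, was the 1 spread member of 14 above 5 CPM, with 103, 145, 148 and 154 CPM: replicate 1 was low. The summed level of the list was 4951, 5213, 5542 and 5611 CPM, lowest in replicate 1 and highest in replicate 4.

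Progenitor and cell cycle transcripts were present. Of 10 progenitor markers 9 were detected, led by Fabp7, a fatty acid-binding protein of radial glia and astrocytes, at 1706 ± 87.2 TPM. Eomes, of intermediate progenitors, was not, at 0.964 CPM. The filament genes Vim and Nes were spread, Vim with 726, 583, 504 and 457 CPM and Nes with 170.5, 137, 118 and 105 CPM, both highest in replicate 1 and lowest in replicate 4. In all, 3 of 8 members above 5 CPM were spread, and none without replicate 1. All 15 proliferation genes were detected at low levels, such as Top2a at 34.7 ± 5.27 CPM and Mki67 at 23.5 ± 1.91 CPM. Ccna2 had 12.9, 9.21, 8.53 and 8.66 CPM and Cdk1 10.8, 7.36, 6.5 and 6.85 CPM; these were the 2 of 10 that were spread, and neither was without replicate 1.

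Other glia were sparse. Of 6 oligodendrocyte precursor markers 4 were detected. Olig1, a factor also found in astrocyte precursors, stood at 273 ± 38.6 TPM against 25 ± 4.39 TPM for its neighbour Olig2. Pdgfra, which defines the precursor, had 1.91, 5.8, 5.63 and 11 CPM, and Cspg4, the NG2 proteoglycan, 3.51, 3.99, 5.03 and 7.75 CPM. Both were highest in replicate 4. Of the 4 members above 5 CPM 3 were spread, a count that was 0 without replicate 4 and 2 without replicate 2. The filter of a mean of at least 5 CPM was applied again to the libraries kept. Without replicate 4 Pdgfra and Cspg4 fell below that filter, so the 0 does not mean that they were alike in replicates 1 to 3. Sox10, needed throughout the lineage, was not detected at 0.521 CPM. Of 10 myelin genes 4 passed, among them Cnp at 20.7 CPM, Mbp at 13 CPM and Mog at 2.86 CPM, and Opalin had no count. Mobp reached 1.66 CPM in replicate 2 and at most 0.173 CPM in the others.

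Microglial and blood vessel genes were near the limit. Of 13 microglial markers 6 were detected, among them Aif1 at 6.14 CPM and Csf1r at 3.33 CPM, while P2ry12 and Tmem119, which define resting microglia, were at 0.296 and 0.357 CPM. Of 8 endothelial markers 2 were detected. Kdr, a VEGF receptor, had 73.7, 60.01, 34.5 and 34.1 CPM, but Cldn5, the tight junction gene of brain endothelium, had 1 count and Tek 7 counts over the 4 libraries, and Pecam1 was at 0.48 CPM. No globin or other red blood cell gene of 6 was detected. Kdr was higher in replicates 1 and 2 than in 3 and 4 without any overlap.

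Genes of mural and meningeal cells were present at low levels. All 8 meningeal fibroblast markers were detected, with a median of 31.1 CPM, and all 6 above 5 CPM were spread (4 to 6 with 1 library left out). The summed level was 295, 338, 257 and 189 CPM, lowest in replicate 4. Col1a1, a fibrillar collagen, had 92.8, 103, 71.4 and 38.4 CPM. Col3a1 had 26.7, 48.9, 21.3 and 22.6 CPM and the proteoglycan gene Dcn 34.8, 33.2, 50.2 and 36.5 CPM, so that replicate 2 was highest for Col3a1 and replicate 3 for Dcn. Of 8 mural markers 3 were detected, and 1 of the 2 above 5 CPM, Acta2, was spread: Acta2, smooth muscle actin, at 20.4 ± 15.7 CPM, Pdgfrb at 8.6 ± 1.28 CPM and Rgs5 at 3.84 ± 0.93 CPM. Myh11, of contractile smooth muscle, was at 0.404 CPM, Kcnj8 at 0.0499 CPM, and Des held 2 counts. Of 8 choroid plexus and ependymal markers 4 were detected. The choroid transthyretin Ttr had 21.2, 25.7, 19.9 and 47.6 CPM and Foxj1, which drives motile cilia, 28.5, 23.4, 20.5 and 16.8 CPM. They ran in unlike directions, and Kcnj13 and Kl of the choroid plexus were not detected at 0.0771 and 0.219 CPM.

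Transcripts linked to the X and the Y chromosome were found in every library. Xist, which coats the inactive X chromosome, had 179, 248, 205 and 222 CPM. The Y-linked Ddx3y had 55.6, 70.6, 62 and 73.5 CPM, and Eif2s3y (54.4 ± 2.94 CPM), Kdm5d (33.3 ± 1.88 CPM) and Uty (22.7 ± 1.39 CPM) were detected too. No library was at 0 for any of the 5 genes.

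**Figure D2:**
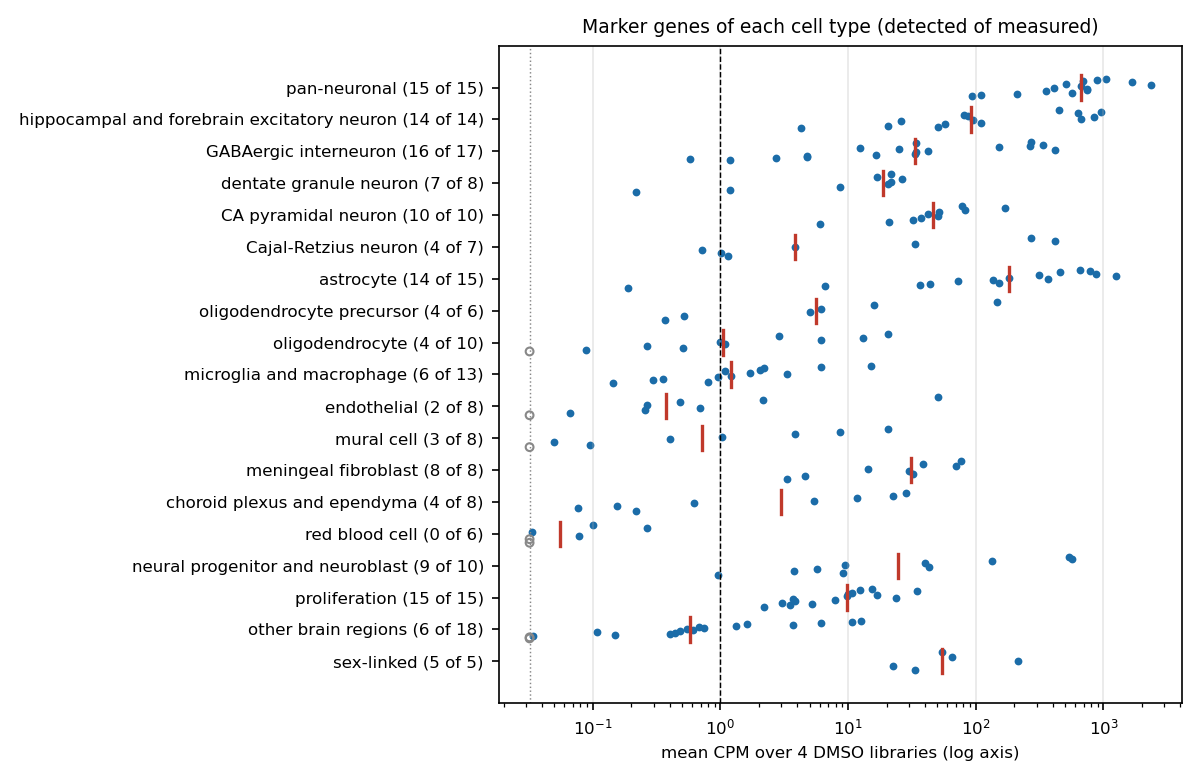
Each point is a marker gene's mean CPM over the 4 replicates on a logarithmic axis, in 1 row per cell type list, with the number detected of the number measured beside the name and a red bar at the median. The dashed line is 1 CPM, and open circles on the dotted line are genes at or under 3 counts over all libraries (0.0320 CPM).

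Gene families were read on the length-scaled level, as counts per gene cannot tell splice isoforms of 1 gene apart. Of 65 families, 20 had every member detected, 44 had some and 1, the Hox genes, had none. In 36 of them the top member held over 50% of the summed TPM. Where families are ordered below, 143 of 433 pairs of neighbours in the order had overlapping ranges over the 4 libraries. Such pairs are not told apart by range. Many of the 143 are Hox genes with few or no counts. Some, such as Dlg2 over Dlg3, still kept the same order within each library. Other length definitions were tried: with the longest transcript the top member changed in 7 families, and with the median transcript in 16.

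Glutamatergic families were led by single members. Slc17a7 held 91.1% of the summed level of vesicular glutamate transporters, at 469.8 ± 21.3 TPM, against 42.3 ± 2.13 TPM for Slc17a6 (VGLUT2) and 3.78 ± 0.673 TPM for Slc17a8 (VGLUT3). Of the AMPA receptor genes, all 4 were detected and Gria1 was highest with 381, 393, 390.3 and 380.5 TPM. Gria2, which makes the channel impermeable to calcium, had 136, 175, 156 and 178 TPM, and was lower in every library. Gria4 (39.9 ± 1.84 TPM) and Gria3 (33.5 ± 2.31 TPM) followed. With the median transcript as length Gria2 came first.

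Of the NMDA receptor genes 6 of 7 were detected. The obligatory subunit Grin1 stood at 153 ± 7.4 TPM, Grin2b at 108 ± 13.6 TPM and Grin2a at 21.7 ± 2.16 TPM. Grin3a (11 ± 0.279 TPM), Grin2d (5.39 ± 0.398 TPM) and Grin2c (2.87 ± 0.882 TPM) were lower, and Grin3b was not detected at 0.126 TPM; with the median transcript as length Grin2b came before Grin1. The kainate subunit Grik5 (131 ± 4.5 TPM) exceeded Grik3 (36.8 ± 0.284 TPM) and Grik4 (33.7 ± 0.698 TPM), while Grik2 and Grik1 were level at 13.7 and 13.5 TPM; with the median transcript as length Grik2 came after Grik5. The metabotropic receptor Grm5 led its 8 genes at 127 ± 11.8 TPM, and Grm6, of retinal bipolar cells, had 2 counts. Grm3, which astrocytes also make, was the 1 spread member, with 18.5, 22.7, 26.3 and 28 CPM.

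The alpha subunits of GABA-A receptors were led by Gabra5 with 347, 338, 350.3 and 331 TPM, an extrasynaptic subunit of the hippocampus. Gabra2 followed with 263, 299.8, 278 and 305 TPM and did not overlap it, but came first with the median transcript as length. Gabra4 (56.2 ± 1.29 TPM) and Gabra3 (39.3 ± 3.02 TPM) lay far lower, and Gabra6, of cerebellar granule cells, had 3 counts. Of the other subunits 8 of 13 were detected, among them Gabrb1 at 126 ± 13.6 TPM and Gabrb2 at 57.1 ± 7.19 TPM. The delta subunit Gabrd, of tonic inhibition, was at 9.35 ± 0.707 TPM. Of the glycine receptors Glrb stood at 128 ± 3.57 TPM and the fetal subunit Glra2 at 93.2 ± 4.59 TPM, whereas the adult Glra1 had 3 counts.

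Of the cation-chloride cotransporters, which set the direction of GABA currents, 5 of 7 were detected. Slc12a5, the chloride exporter KCC2 of neurons, had 159.7, 162, 159.9 and 152 TPM. Slc12a2, the importer NKCC1, had 17.4, 19.1, 16.3 and 17.5 TPM and lay below in each library. Of the GABA transporters the astrocytic Slc6a11 stood at 157 ± 6.19 TPM, and Slc6a12 and Slc6a13 were not detected at 0.253 and 0.658 TPM. Slc1a1, the neuronal glutamate transporter, was at 48.2 ± 0.337 TPM, below Slc1a2 and Slc1a3 in every library.

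**Figure D3:**
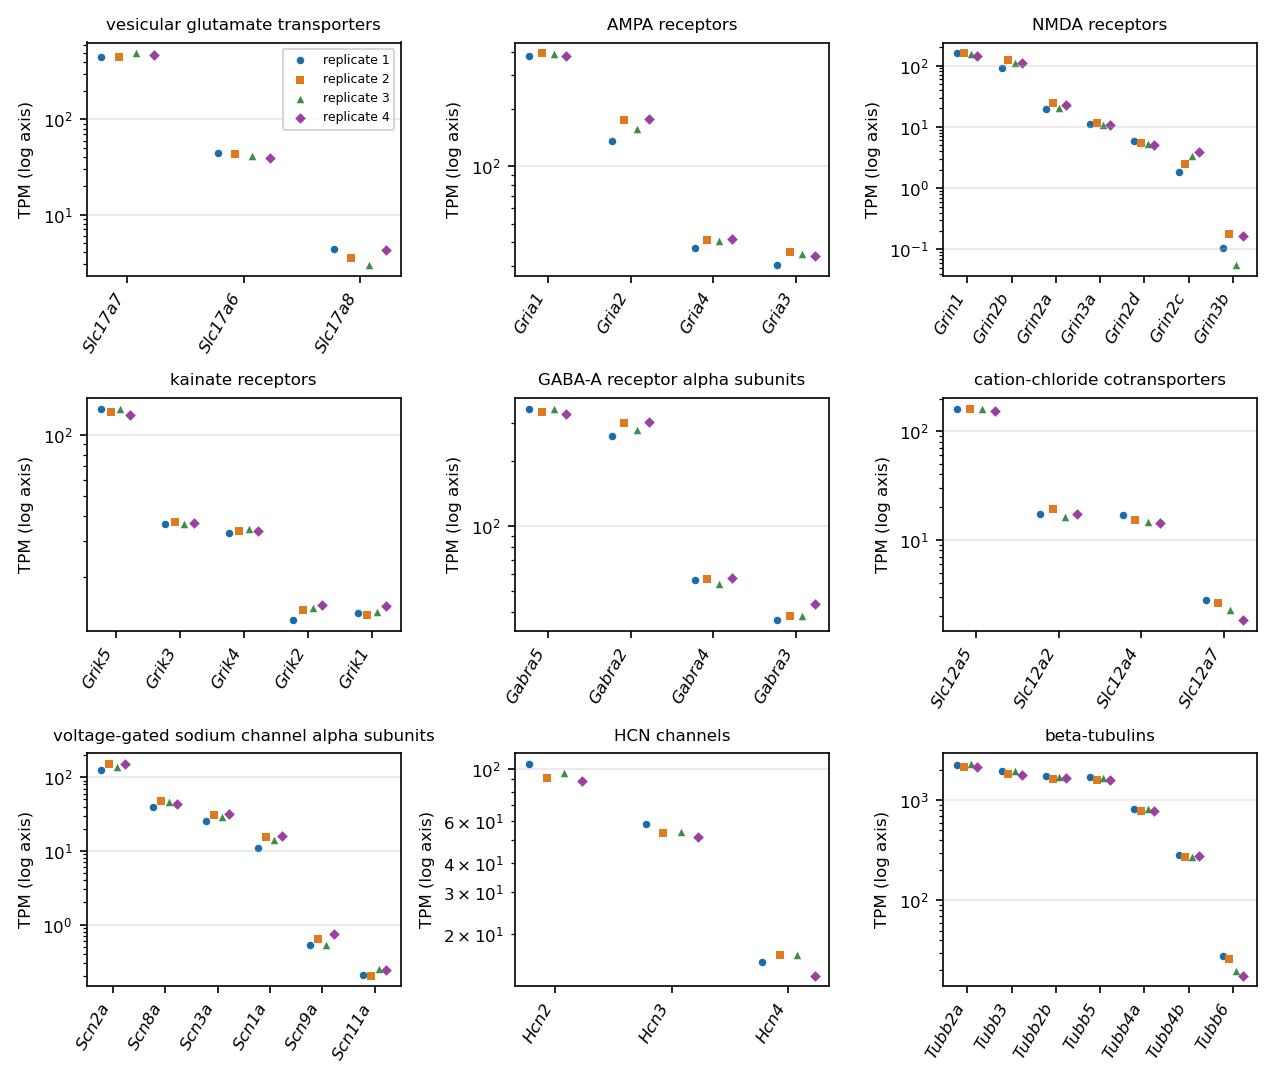
Length-scaled levels (TPM, logarithmic axis) of reported members of 9 gene families with a mean of at least 0.1 TPM, with 1 point for each of the 4 replicates. Gaps between the leading and the following members, such as Slc17a7 and Slc17a6 or Gabra2 and Gabra4, exceed the scatter of the points.

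Voltage-gated channels were broad in number. Of the sodium channel alpha subunits 6 of 9 were detected, among them Scn2a at 141 ± 12.4 TPM, Scn8a at 44.1 ± 3.46 TPM, Scn3a, an embryonic form, at 29.2 ± 2.86 TPM and Scn1a at 14.1 ± 2.16 TPM, with the sensory neuron form Scn9a at 0.612 ± 0.103 TPM. The muscle gene Scn4a and the sensory gene Scn10a were not detected, at 0.0252 and 0.0113 TPM. The beta subunits Scn3b (109.7 ± 2.62 TPM) and Scn2b (80.1 ± 4.2 TPM) were detected and Scn4b was not, at 0.219 TPM. Of the calcium channel pores 8 of 10 passed, led by the presynaptic N-type Cacna1b at 104 ± 5.24 TPM, with the P/Q-type Cacna1a at 41.4 ± 1.24 TPM and the T-type Cacna1h at 39.2 ± 1.83 TPM; with the median transcript as length Cacna1a came first and Cacna1b after Cacna1h. The retinal Cacna1f and muscle Cacna1s did not, at 0.24 and 0.193 TPM.

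Potassium channels of the Kv1 to Kv4 groups had 14 of 15 members detected. The top member, Kcnd3, held 15.7% of the summed level at 90.1 ± 2.22 TPM, the lowest such share of the 65 families. Kcna1 (85.7 ± 7.16 TPM) and Kcnd2 (63.4 ± 2.1 TPM) followed, and Kcna5 was not detected at 1.36 TPM. Of the M-current genes Kcnq5 (97.3 ± 5.12 TPM) and Kcnq3 (45.4 ± 6.68 TPM) were high, and the cardiac Kcnq1 was not detected at 0.255 TPM. Of the pacemaker channel genes Hcn2 (95.1 ± 7.07 TPM) was above Hcn3 (54.2 ± 2.9 TPM) and Hcn4 (15.3 ± 1.41 TPM), and below Hcn3 with the median transcript as length.

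The presynaptic release machinery was present at high levels. Vamp2, the vesicle SNARE, reached 1020.5 ± 65.4 TPM and held 88.4% of its family. Its partner Snap25 stood at 434 ± 13.1 TPM, below Snap47 at 642 ± 14.8 TPM. Cplx2 (1187 ± 13.8 TPM) and Cplx1 (817 ± 38.5 TPM) clamp and trigger fusion, while the retinal Cplx3 and Cplx4 were at 0.365 and 0.0903 TPM. Of the calcium sensors Syt1 (357 ± 9.81 TPM) was second to Syt11 (636 ± 15 TPM), a member that does not bind calcium, and Syt2, of hindbrain and motor synapses, was at 1.04 ± 0.105 TPM. Syn1 (620.1 ± 24.4 TPM) exceeded Syn2 (295 ± 7.45 TPM) and Syn3 (3.27 ± 0.343 TPM), Sv2a (452 ± 14.6 TPM) exceeded Sv2b (284 ± 8.68 TPM), and Unc13a (132 ± 3.82 TPM) held 87.0% of the Munc13 genes. With the median transcript as length Syn2 came before Syn1, Cplx1 before Cplx2, and Syt5 before Syt11.

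On the postsynaptic side the scaffold Dlg4 (PSD-95) stood at 172 ± 3.74 TPM, followed by Dlg2 (133 ± 5.46 TPM) and Dlg3 (123 ± 2.9 TPM). Shank1 (108 ± 6.11 TPM) and Shank3 (102 ± 2.09 TPM) were near each other and changed places with the length definition. Of the CaM kinase II genes Camk2a (513 ± 29.4 TPM) and Camk2b (381 ± 7.29 TPM) were far above Camk2g (83.4 ± 1.38 TPM) and Camk2d (15.6 ± 0.38 TPM). Across the cleft, Nrxn2 (169 ± 5.21 TPM) led the neurexins, with Nrxn3 at 30.01 ± 2.33 TPM, and Nlgn2, of inhibitory synapses (240.3 ± 7.96 TPM), held 76.3% of the neuroligins.

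The cytoskeleton gave some of the highest levels of any family. The beta-tubulins Tubb2a (2227 ± 68.7 TPM), Tubb3 (1894 ± 83.1 TPM), Tubb2b (1693 ± 44 TPM) and Tubb5 (1654 ± 64.1 TPM) were close, with Tubb4a at 803 ± 20.7 TPM. Tubb1, of platelets, had no count. Of the stathmins Stmn3 (2321 ± 80.1 TPM) exceeded Stmn2 (1204 ± 17.9 TPM) and Stmn4 (734 ± 17.5 TPM), and Stmn1 was at 84 ± 4.6 TPM; with the median transcript as length Stmn2 came before Stmn3. The intermediate filaments Nefl (484 ± 10.6 TPM), Vim (478 ± 102 TPM), Gfap (436 ± 35.7 TPM) and Ina (429.7 ± 15.1 TPM) were level, with overlapping ranges between several, and Vim came first with either other length. With the median transcript Tubb5 led the beta-tubulins. Actb stood at 1923 ± 168 TPM.

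Eno2, neuronal enolase, stood at 334 ± 3.89 TPM, against 7.33 ± 1.05 TPM for the muscle form Eno3. Aldoa (926 ± 40.8 TPM) and Aldoc (382 ± 18.2 TPM) were detected. Ckb (552 ± 35.2 TPM) and Ckmt1 (119.8 ± 6.7 TPM) were detected, and the muscle Ckm and Ckmt2 were not, at 0.0277 and 0.118 TPM. Hk1 held 96.3% of the hexokinases at 203 ± 4.31 TPM. The sperm-specific Ldhc had no count, while Ldha was at 448 ± 13.5 TPM. Of the sodium pump genes Atp1b1 was at 1447 ± 20.3 TPM, and the testis form Atp1a4 held 5 counts. Of 17 connexins only Gja1 (59 ± 5.23 TPM), the neuronal Gjd2 (34 ± 1.36 TPM) and Gjc1 (6.22 ± 0.704 TPM) were detected.

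Most receptors for neuromodulators were low. All 5 muscarinic receptors were detected, with Chrm1 at 41.1 ± 2.08 TPM and Chrm4 at 35.8 ± 4.03 TPM. Of the dopamine receptors only Drd1 passed, at 6.7 ± 1.11 TPM, and of 14 serotonin receptors 9 did, led by Htr2c at 41 ± 1.92 TPM. The cannabinoid receptor Cnr1, found on interneuron terminals, was the highest of these receptors at 216 ± 5.1 TPM. Of the opioid family the nociceptin receptor Oprl1 reached 45.8 ± 4.37 TPM, and the mu and kappa receptors Oprm1 and Oprk1 held 9 and 4 counts. The granin Scg2 (781 ± 76.9 TPM), Vgf (474 ± 34.1 TPM) and Chgb (318 ± 7.42 TPM) were high among the secreted peptides, and Crh was not detected at 0.784 TPM. Ntrk2, the receptor of BDNF, stood at 139 ± 6.75 TPM and Bdnf at 62.8 ± 2.86 TPM; with the median transcript as length Ntrk3 led this family.

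All 16 immediate early genes were detected under vehicle. Nr4a3, an orphan nuclear receptor, was highest by a wide margin with 592, 565, 541 and 549 CPM, with 375 ± 17.4 TPM against 93.1 ± 5.2 TPM for the next, Fosl2. Fos had 32, 27.7, 24.8 and 22.9 CPM and Arc 18.5, 17.2, 16.8 and 15 CPM. Npas4, an activity-dependent factor induced by calcium entry, was the 1 spread member, with 11, 9.43, 6.27 and 7.43 CPM; replicate 3 was lowest. Of 15 long non-coding RNAs 14 were detected, and 4 of the 14 above 5 CPM were spread, a count that was 2 without replicate 1 and 0 without replicate 2. Meg3 led with 1259, 1675, 1391 and 1564 CPM. Malat1 had 315, 447, 288 and 341 CPM and was highest in replicate 2. H19 was not detected at 0.787 CPM.

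Early and late members of 10 pairs were compared within each library, as the log2 ratio of their length-scaled levels, positive where the early member is higher. The member listed as early was higher for 4 pairs and the late member for 6, and every pair had the same sign in 4 of 4 libraries. The first 4 include Cox7a2 over Cox7a1, which sets a gene against its muscle form and is not read as early or late. No test was made, as an exact two-sided sign-flip test of 4 values cannot give a p under 0.125. For Grin2b over Grin2a the log2 ratio was 2.20, 2.35, 2.43 and 2.28, or 4.98-fold on average. For Slc12a2 over Slc12a5 it was -3.20, -3.09, -3.30 and -3.12, with the late exporter 9.03-fold higher. Grin2a has near-identical copies, as has Tubb2b below, so the direction of the NMDA receptor pair is uncertain.

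The vesicular glutamate transporter, stathmin and enolase pairs had their late member higher, but Stmn1 and Eno1 have near-identical copies, so that their low values and the direction of these 2 pairs are uncertain. Slc17a6 over Slc17a7 was -3.33, -3.41, -3.58 and -3.58 on the log2 scale, Stmn1 over Stmn3 -4.68, -4.79, -4.90 and -4.79 and Eno1 over Eno2 -2.82, -3.01, -2.88 and -3.11. The sodium channel and tubulin pairs had their early member higher. Scn3a over Scn1a was 1.20, 1.02, 1.04 and 1.004 and Tubb2b over Tubb4a 1.10, 1.06, 1.04 and 1.10. Cox7a2 over the muscle form Cox7a1 was 6.82, 6.90, 6.16 and 5.94, a wider range than for the other pairs, with Cox7a1 below detection at 0.73 CPM. Small ratios were found for Dlg3 over Dlg4, at -0.50, -0.51, -0.47 and -0.45, and Camk2b over Camk2a, at -0.30, -0.43, -0.48 and -0.50. Glra2 held 6906 counts and Glra1 3, so no ratio is given.

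The ratios depended on the length divided by. With the longest transcript Camk2b over Camk2a turned to 0.13. With the median transcript Grin2b over Grin2a rose to 5.35 and Dlg3 over Dlg4 lay at -3.98. Apart from Camk2b over Camk2a with the longest transcript, no pair changed sign under either length.

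**Figure D4:**
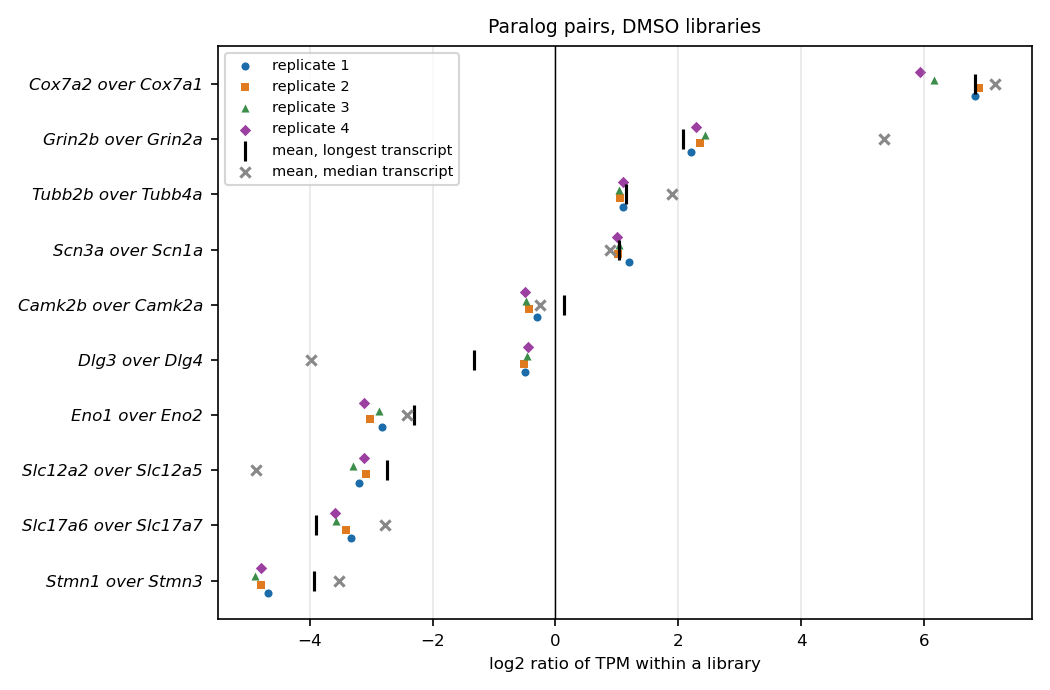
The log2 ratio of length-scaled levels, early over late member, for 10 pairs, with 1 point per replicate; bars mark the mean with the longest transcript as length and crosses the mean with the median transcript. The points of each pair lie on 1 side of 0, and the crosses lie far from the points for Grin2b over Grin2a and Dlg3 over Dlg4.

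Most genes were alike in the 4 libraries. Among the 11158 genes with a mean of at least 5 CPM the median coefficient of variation was 5.06%, the median ratio of the highest to the lowest library was 1.12, and 90% of genes had a coefficient of variation under 10.9%. The biological coefficient of variation fitted by edgeR was 0.0579. The 256 spread genes were 122 without replicate 1 and 152 without replicate 4. Of the 256, 119 lay between 5 and 10 CPM, where 8.23% of genes were spread, against 0.477% between 100 and 300 CPM. Above 300 CPM 11 genes (1.85%) were spread, Lars2, CT010467.1, Mir6236, Vim, Zbtb20 and Malat1 among them. Outside the lists, and named after their values were seen, the matrix gene Sparc had 705, 636, 504 and 431 CPM and the binding proteins of insulin-like growth factors Igfbp5 and Igfbp2 had 638, 579, 409.8 and 349.9 CPM and 486, 412, 338 and 283 CPM, each highest in replicate 1 and lowest in replicate 4.

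Among named genes above 5 CPM the smallest coefficient of variation was 0.132% for Racgap1, a regulator of cell division, with 20.2, 20.2, 20.2 and 20.2 CPM. Napg, a SNARE adaptor, followed at 0.248%, with 199.8, 199.7, 199.5 and 199 CPM. Paip2b (0.274%), Ahi1 (0.310%), Rap1gap (0.319%), Magoh (0.343%), Gclc (0.358%), Ttc7b (0.366%), Cpe (0.386%), Ppid (0.391%) and Eps8 (0.393%) were also among the 12 lowest. They were picked as the lowest of 11158 genes on these 4 libraries, so such small values are a description of these libraries.

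The 12 genes of largest spread, with the unnamed model Gm23935 passed over, were as follows. Acta2 (chr19:34241090-34255590, GRCm38), smooth muscle actin, had 41.9, 21.4, 12.6 and 5.85 CPM in libraries of 1 group, 7.16-fold between the highest and the lowest. Tagln, an actin-binding protein of smooth muscle of which 67.9% overlaps another gene, had 45.8, 29.9, 23.7 and 13 CPM. Cnn2, a calponin, had 18.3, 14.2, 9.27 and 5.67 CPM. All 3 were highest in replicate 1 and lowest in replicate 4. Lox, which cross-links collagen and elastin, had 34.7, 30.4, 21.4 and 11.6 CPM, elastin itself, Eln, 47.7, 53.4, 31.8 and 19.2 CPM, and Fbln5, which binds it, 39.8, 31.4, 20.9 and 13.8 CPM. Thbs1, thrombospondin 1, had 177, 136, 88.3 and 60.8 CPM, Col8a1 19.7, 19.3, 12.5 and 6.3 CPM, and Pdlim2 8.76, 5.99, 4.43 and 3.13 CPM. Akr1c14, a hydroxysteroid dehydrogenase, had 8.8, 6.54, 3.6 and 1.81 CPM. Pdgfra was the 1 gene of these 12 highest in replicate 4, and Col1a1 the other collagen among them.

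**Figure D5:**
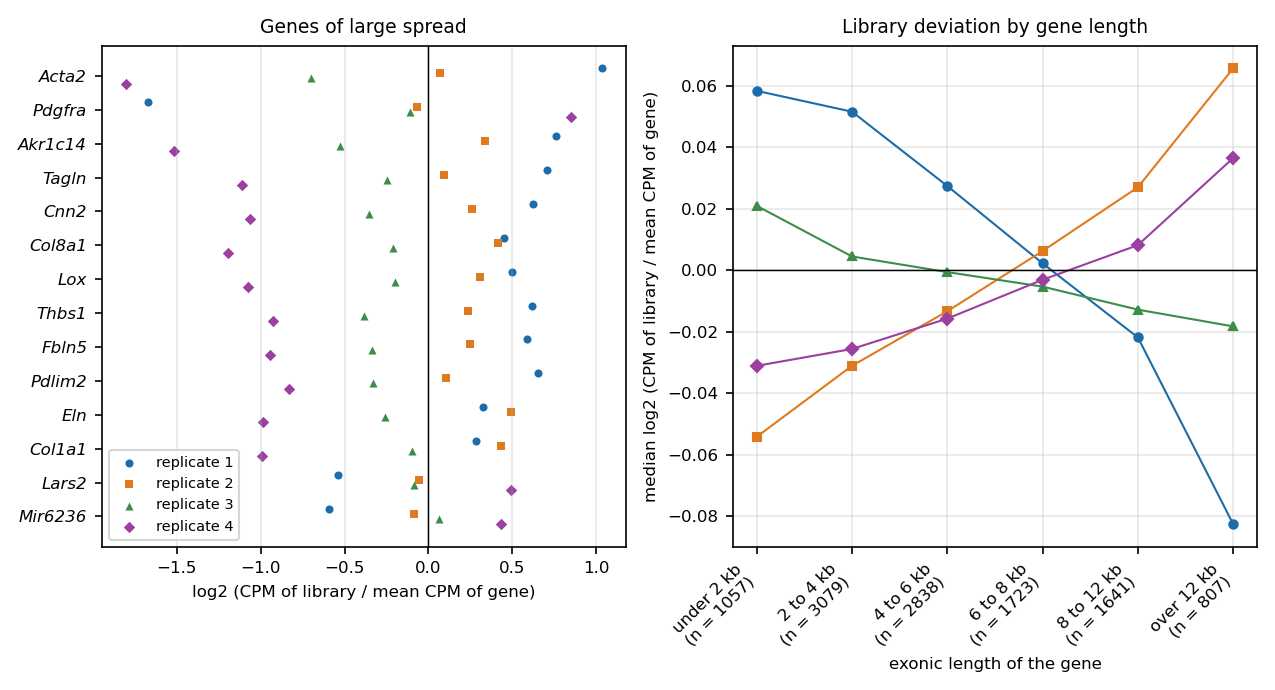
The left panel shows log2 of each replicate's CPM over the gene's mean for the 12 genes of largest spread, with Lars2 and Mir6236. The right panel shows the median of that value by gene length for each replicate: genes under 2 kb lie at 0.06 in replicate 1 and genes over 12 kb at -0.08.

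Of the 254 spread genes with an annotated symbol, 106 were highest in replicate 1 and lowest in replicate 4, 35 were the reverse, and 113 had another order; 58 reached a ratio of 2. Replicate 1 was the highest library for 134 and replicate 4 the lowest for 144 of the 254, whereas over all genes above 5 CPM replicate 1 was highest for 40.0% and replicate 4 lowest for 29.0%. Of 27 collagen genes above 5 CPM 18 were spread, against 2.29% of all genes above 5 CPM, and none of the 18 had its highest value in replicate 3 or 4. The collagen genes were not 1 of the lists. They were grouped by symbol, and Col8a1 and Col1a1 were already among the genes of largest spread, so this share is a description only. Gene length moved with the libraries as well: for genes over 12 kb the median log2 deviation was -0.08, 0.07, -0.02 and 0.04, and for genes under 2 kb 0.06, -0.05, 0.02 and -0.03. The part of length in single genes was not tested.

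The lane of sequencing ran with this pattern. Replicates 1 and 2, which shared a lane, were both above replicates 3 and 4 in 165 of the 256 spread genes, in 18 of the 18 spread collagen genes, in 20 of the 27 collagen genes above 5 CPM and in 5 of the 6 fibroblast markers above 5 CPM, against 19.4% of all genes above 5 CPM. They were both below in 29 of the 256, against 12.3%. The collagen and fibroblast sets share Col1a1, Col1a2 and Col3a1 and are not separate evidence. Lane and library cannot be told apart for these genes. Within lane 1, replicate 1 was at least 1.5 times replicate 2 in 5 of the spread genes, Acta2 among them, and the reverse held in 37.

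The promoter of Cnn2 is shown because, of the 12 genes of largest spread, it was the 1 with a CArG box among those matched, the element bound by serum response factor in many contractile genes. Promoter windows of 300 bases, 250 before to 50 after the start, were taken from RefSeq (GRCm38.p6), which held 7 windows for 6 of the 12 genes. Acta2 and Tagln were among the genes with no window, so their promoters were not searched. Capitals mark the box in the Cnn2 window (chr10:79988350-79988649, plus strand), 56 to 47 bases before the start.
Cnn2 promoter: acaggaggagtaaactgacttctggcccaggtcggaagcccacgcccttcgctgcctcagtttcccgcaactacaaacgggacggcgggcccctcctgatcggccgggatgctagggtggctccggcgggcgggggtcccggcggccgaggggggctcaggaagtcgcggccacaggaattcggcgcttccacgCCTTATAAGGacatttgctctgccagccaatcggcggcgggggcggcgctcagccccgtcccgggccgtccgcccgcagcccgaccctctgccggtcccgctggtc

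Both strands were searched. A CArG box was in 4 of 98 windows (4.08%) of the 76 matched genes that were highest in replicate 1 and lowest in replicate 4, in 1.25% of the windows of detected genes and in 1.63% of all 32851 windows. The letters TATAAA were in 10.2%, 6.95% and 13.6% of the same windows. With 4 windows the first share rests on few genes, and a match is a description of the letters only.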

How the data were processed

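The 4 DMSO libraries of primary mouse hippocampal neurons were built from polyadenylated RNA with the TruSeq RNA Library Prep v2 chemistry, which keeps no strand information, and sequenced from 1 end to 50 bp on a HiSeq2000, per the labels' protocols. For each library the authors deposited raw counts that were not normalized, over 48709 Ensembl genes. The genome build was mm10, and the tools STAR 2.5.2b, Subread 1.5.1, featureCounts, FastQC 0.11.5 and DESeq2 were listed with no roles, per the submitters' processing notes. Which annotation was counted, with which strand option, and how multi-mapping reads were treated is not given in the sources used here.

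GENCODE mouse release M21 (GRCm38) matched 48349 identifiers. The 360 others held 0.0417% of the counts. The listed genes Vamp7, Rmst and Rn18s-rs5 had no match, and Nov was read as Ccn3. CPM was the count over the library's total, and TPM the count per kilobase of joined exons, scaled to a sum of 1e+06. No test between groups was made. Some genes, 3 pairs and 1 sequence are not reported here. The gene lists, families, pairs and rules were chosen with earlier results of these data known. Named genes were the 25 highest by CPM and by TPM, the 12 of largest and the 12 of smallest spread with a mean of at least 5 CPM (unnamed gene models passed over), list members and pairs. Spread between libraries was fitted with edgeR 4.0.16 (common dispersion, TMM, filterByExpr) in R 4.3.3. On simulated data for 14608 genes it returned 0.0497 where 0.05 had been put in. DESeq2 1.42.0 size factors, pandas 2.3.3 and numpy 2.4.6 were used. Alternatives changed the detection rule, the scaling, the low-level filter, the gene length and the libraries included. The promoter windows came from RefSeq tables and the gene model's sequence from GENCODE transcripts. Library totals ran from 21677129 to 27046502 counts, so that 1 CPM stands for 21.7 to 27.05 counts. A count of 0 in all 4 libraries allows 3 counts, or 0.0320 CPM; this covers counting error only. Columns of no mapped sample numbered 0.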

Additional observations from a re-analysis of the deposited data

Results flagged for a closer look

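Among 412 reported genes with a mean of at least 5 CPM, 12 (2.91%) had 1 library far from the other 3, by the gap to its neighbour over the whole range of the 4 libraries. Chance gives such a gap in about 1 in 20 groups, a larger share than the 2.91% found. The genes below are therefore a description only.

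Replicate 1 was the high library in 5 of them. Ccna2, a cyclin of DNA replication, was at 12.9 CPM there against 8.53 to 9.21 CPM in the others (gap over range 0.847). The replication helicase genes Mcm2, at 19.2 against 15.9 to 16.3 CPM (0.877), and Mcm3, at 12.1 against 10.1 to 10.4 CPM (0.837), stood apart in the same library. Rsph1, of motile cilia, was at 13.7 against 10.7 to 11.2 CPM (0.845), and the potassium channel gene Kcna6 at 84.0 against 72.3 to 74.3 CPM (0.832).

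Replicate 4 was high for the calcium-binding Calb1, at 30.4 against 24.6 to 25.5 CPM (0.842), the opioid precursor Penk, at 10.7 against 8.95 to 9.06 CPM (0.933), and the potassium channel gene Kcnc2, at 19.7 against 18.4 to 18.5 CPM (0.954). It was low for the serotonin receptor gene Htr2c, at 89.9 against 97.1 to 98.3 CPM (0.856). Replicate 3 was high for Slc32a1, at 45.9 against 40.6 to 41.2 CPM (0.879), and low for Htr7, at 12.7 against 15.1 to 15.6 CPM (0.840). Replicate 2 was low for Dsp, a desmosome gene, at 7.84 against 8.80 to 8.996 CPM (0.832). Of these genes only Ccna2 also had a ratio of at least 1.5 between its highest and lowest library.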

How the results depend on the processing

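The number of genes detected was 14383 at 0.5 CPM, 14704 at 10 counts and 19354 at 1 count in each library, and 13387 to 13427 with 1 library left out. The number of spread genes was 251 with TMM, 249 with DESeq2 size factors and 262 without mitochondrial genes, Lars2 and Mir6236 in the totals, but 1125 (of 13744 genes) from a mean of 1 CPM and 14090 (of 27444) with no filter on the mean, where few counts set the ratio. With 1 library left out it was 122 (without replicate 1) to 224 (without replicate 3), and 152 without replicate 4. The biological coefficient of variation ranged from 0.0443 to 0.0656 and the mitochondrial share as counted from 3.70% to 3.77% over the libraries left out.

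With the longest transcript as length, the log2 pair ratios were Grin2b over Grin2a 2.07, Slc12a2 over Slc12a5 -2.74, Dlg3 over Dlg4 -1.33, Camk2b over Camk2a 0.13, Slc17a6 over Slc17a7 -3.90, Stmn1 over Stmn3 -3.93, Tubb2b over Tubb4a 1.15 and Eno1 over Eno2 -2.30; that of Camk2b over Camk2a reversed. With the median transcript they were Grin2b over Grin2a 5.35, Slc12a2 over Slc12a5 -4.88, Dlg3 over Dlg4 -3.98, Camk2b over Camk2a -0.25, Slc17a6 over Slc17a7 -2.78, Scn3a over Scn1a 0.88, Stmn1 over Stmn3 -3.53, Tubb2b over Tubb4a 1.89, Cox7a2 over Cox7a1 7.15 and Eno1 over Eno2 -2.41. With 1 library left out, the ranges were Grin2b over Grin2a 2.28 to 2.35, Slc12a2 over Slc12a5 -3.21 to -3.14, Dlg3 over Dlg4 -0.49 to -0.47, Camk2b over Camk2a -0.47 to -0.40, Slc17a6 over Slc17a7 -3.52 to -3.44, Scn3a over Scn1a 1.02 to 1.09, Stmn1 over Stmn3 -4.82 to -4.75, Tubb2b over Tubb4a 1.07 to 1.09, Cox7a2 over Cox7a1 6.30 to 6.62 and Eno1 over Eno2 -2.999 to -2.90. Of 470 reported genes, the TPM moved by more than 1 SD in 364 with the longest and 433 with the median transcript, and the CPM in 143 with mitochondrial genes, Lars2 and Mir6236 left out of the totals and 0 with TMM. No paired analysis was possible because only 1 group was described.

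The depth limits statements on genes near 1 CPM, where few counts stand behind each value. Counts per gene do not tell splice isoforms apart, and the counts of genes with near-identical copies are uncertain. Whether the libraries came from separate cultures is not given in the sources used here, and lane and library cannot be told apart for replicates 3 and 4.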

Other observations

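Further families of the same 4 libraries were described by their length-scaled levels. Among the genes named here Cox6a2 and Syp overlap another gene, and Eef1a1, Hspa1b and Sfn have near-identical copies, so their levels are uncertain. Of the calcium sensors, the calmodulin genes Calm3 and Calm2 were high, at 2603 ± 63.5 TPM and 1863 ± 35.9 TPM. Of the 14-3-3 adaptor proteins 6 of 7 were detected, led by Ywhae (1859 ± 29.3 TPM) and Ywhag (1301 ± 27.8 TPM), and the epithelial Sfn was not, at 0.556 TPM. Hsp90ab1, at 2969 ± 60.1 TPM, held 64.3% of the Hsp90 and Hsc70 list. Hspa5, the chaperone of the endoplasmic reticulum, stood at 579.6 ± 44.8 TPM and the inducible Hspa1b at 10.6 ± 1.11 TPM. The elongation factor Eef2 stood at 1831 ± 79.5 TPM, Eef1a1 at 1393 ± 56.3 TPM, and the neuronal and muscle form Eef1a2 at 598 ± 20.9 TPM.

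RNA-binding proteins of the ELAV and RBFOX families were all detected, with Rbfox2 at 239 ± 5.56 TPM, Elavl3 at 205 ± 5.08 TPM and Rbfox1 at 121 ± 1.35 TPM. Of the 7 apolipoproteins on the list only Apoe (1231 ± 79.9 TPM), Clu (273 ± 41.4 TPM) and Apod (9.16 ± 2.55 TPM) were detected, and Apoa2, of the liver, had no count. Of the cytochrome oxidase genes 8 of 12 passed: Cox6a1 (1026 ± 34 TPM), Cox6b1 (1005 ± 42.3 TPM) and Cox8a (977 ± 31.6 TPM) were high, and their muscle or testis relatives Cox6a2 (10.1 ± 2.49 TPM), Cox6b2 (11.8 ± 3.54 TPM) and Cox8b (2.19 ± 1.29 TPM) were low. Adrenergic receptors were low, with Adra2a highest at 19.8 ± 1.0 TPM and 6 of 9 detected. The synaptic vesicle proteins Syp (516 ± 14.5 TPM), Syngr3 (499 ± 18.8 TPM) and Syngr1 (436 ± 12.4 TPM) were far above Synpr, of mossy fibre terminals, at 14.7 ± 0.982 TPM. The host gene Mir124a-1hg was at 36.1 ± 3.1 TPM and Mir9-3hg at 27.4 ± 1.04 TPM, which says nothing of the mature miRNAs.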
